A study of Mus musculus with 9 samples.

Results

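The comparison took the wild-type H3K4me3 peaks of mouse spermatocytes and asked which of them still carried an H3K4me3 peak in mice with a catalytically impaired PRDM9. H3K4me3 is histone H3 trimethylated at lysine 4, measured by chromatin immunoprecipitation with sequencing (ChIP-seq). The wild-type group was C57BL/6J (B6; genotype PRDM9-WT). The mutant group was C57BL/6J-Prdm9<em2Kpgn>/Kpgn, homozygous for EP (genotype PRDM9-EP/EP), a change of glutamate 360 of PRDM9 to proline that the labels call a severe catalytic hypomorph. Both groups were spermatocytes of mice aged 14 days post-partum, with 2 H3K4me3 libraries each, and all 4 were re-analysed earlier data. The series also holds a second substitution of the same residue, which was not used here. The number of animals per library and the way in which spermatocytes were enriched are not given in the sources used here. The deposited data used here are 2 lists of intervals per genotype, with chromosome, start and end: 1 of H3K4me3 peaks, and 1 of peaks with both H3K4me3 and H3K36me3, the latter mark from 1 library per genotype. The wild-type H3K4me3 list held 18427 peaks and the EP list 3703. A wild-type peak was called kept if an EP peak overlapped it by 1 bp or more and lost otherwise. By this rule 3661 peaks were kept and 14766 were lost. The kept share was 19.9% (95% Wilson interval 19.3 to 20.4%), and this is the background against which all kept shares of peaks below are read. Lists without expression values hold no markers with which to check the cell type.

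PRDM9 is a zinc finger protein of early meiosis that binds specific DNA sequences and methylates nearby nucleosomes at lysines 4 and 36 of histone H3. The marked sites are where programmed DNA double-strand breaks form, so they become the hotspots of recombination. Gene promoters also carry H3K4me3, placed there by other methyltransferases in nearly all cells. In mice lacking PRDM9, breaks form at promoters and other sites that carry this mark without PRDM9. The lists here were restricted by the authors to known PRDM9-dependent sites, so a peak elsewhere in the genome could not appear in either list.

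Several wild-type peaks contained the start of a protein-coding gene, and the sequences before some of these starts show what kind of promoter a PRDM9-dependent peak can cover. Windows of 300 bases around a start (250 before, 50 after) lay wholly inside a wild-type peak at 21 starts in kept and 21 starts in lost peaks. The 250 bases before the start are printed for the 3 with the most CpG dinucleotides among those inside both the wild-type and the EP interval, and for the 3 with the most among lost peaks. They are from RefSeq (GRCm38.p6, the coordinates of mm10), read 5′ to 3′ in the direction of transcription, with each CpG in capitals. Kept peaks contained the starts of Nedd4, a ubiquitin ligase, Olr1, a receptor for oxidised lipoprotein, and Akt2, a protein kinase of insulin signalling. Lost peaks contained those of Cym, the gene of the milk-clotting protease chymosin, Zfp616, a zinc finger gene, and Cdh23, a cadherin of inner ear hair cells.
Nedd4 (kept; chr9:72693048-72693297, plus strand): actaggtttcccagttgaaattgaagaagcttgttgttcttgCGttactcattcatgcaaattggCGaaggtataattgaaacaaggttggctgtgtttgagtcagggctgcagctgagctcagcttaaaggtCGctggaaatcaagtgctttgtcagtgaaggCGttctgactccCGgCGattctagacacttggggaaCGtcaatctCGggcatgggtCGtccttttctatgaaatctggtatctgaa
Olr1 (kept; chr6:129507166-129507415, minus strand): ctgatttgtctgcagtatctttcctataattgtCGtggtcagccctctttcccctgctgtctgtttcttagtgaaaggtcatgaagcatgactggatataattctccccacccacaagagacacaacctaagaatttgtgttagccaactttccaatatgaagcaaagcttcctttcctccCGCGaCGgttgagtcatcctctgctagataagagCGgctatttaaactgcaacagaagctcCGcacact
Akt2 (kept; chr7:27605547-27605796, plus strand): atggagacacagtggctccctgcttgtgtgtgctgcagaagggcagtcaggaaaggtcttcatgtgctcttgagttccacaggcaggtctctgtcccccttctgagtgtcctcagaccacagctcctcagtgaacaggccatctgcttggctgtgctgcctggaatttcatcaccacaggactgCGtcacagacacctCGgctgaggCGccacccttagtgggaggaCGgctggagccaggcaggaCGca
Cym (lost; chr3:107221733-107221982, minus strand): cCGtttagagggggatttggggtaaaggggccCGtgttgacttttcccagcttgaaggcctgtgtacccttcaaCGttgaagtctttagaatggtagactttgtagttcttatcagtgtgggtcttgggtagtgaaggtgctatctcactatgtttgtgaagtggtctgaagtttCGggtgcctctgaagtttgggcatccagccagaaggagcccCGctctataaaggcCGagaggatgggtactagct
Zfp616 (lost; chr11:74060647-74060896, plus strand): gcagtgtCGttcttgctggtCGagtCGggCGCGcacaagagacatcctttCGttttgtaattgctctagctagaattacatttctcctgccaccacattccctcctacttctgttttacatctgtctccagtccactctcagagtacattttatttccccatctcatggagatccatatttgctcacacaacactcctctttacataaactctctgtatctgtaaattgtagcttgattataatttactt
Cdh23 (lost; chr10:60696491-60696740, minus strand): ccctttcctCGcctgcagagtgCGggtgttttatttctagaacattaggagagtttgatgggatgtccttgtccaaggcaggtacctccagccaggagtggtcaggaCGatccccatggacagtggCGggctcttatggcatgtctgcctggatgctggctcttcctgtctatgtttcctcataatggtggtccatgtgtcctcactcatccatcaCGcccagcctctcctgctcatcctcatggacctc
These windows held 9, 6 and 5 CpG dinucleotides in the kept peaks at Nedd4, Olr1 and Akt2. In the lost peaks at Cym, Zfp616 and Cdh23 they held 6, 6 and 5. Over the 250 bases of all such windows the median was 3 in the 21 of kept peaks (range 0 to 9) and 2 in the 21 of lost peaks (range 0 to 6). All 21263 starts of protein-coding genes in the table had a median of 10. The starts inside wild-type peaks were thus CpG-poor next to starts in general, in kept and in lost peaks alike. At Nedd4 and Olr1 the EP interval had the same borders as the wild-type interval, with widths of 1202 and 831 bp. At Akt2 the wild-type interval was 1552 bp wide and the EP interval 1101 bp.

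Kept peaks were found on every chromosome of the list, in shares that differed little. Outside chromosome Y, the kept share ran from 14.8% on chromosome 18 to 22.4% on chromosome 17. Chromosome Y had 8 wild-type peaks, of which 1 was kept (12.5%, 2.24 to 47.1%). The 95% intervals of 18 of the 20 other chromosomes contained the share over all peaks. The 2 exceptions were chromosome 18 (95 of 643 peaks kept, 12.2 to 17.7%) and chromosome 4 (230 of 1028, 22.4%, 19.9 to 25.02%).

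**Figure D1:**
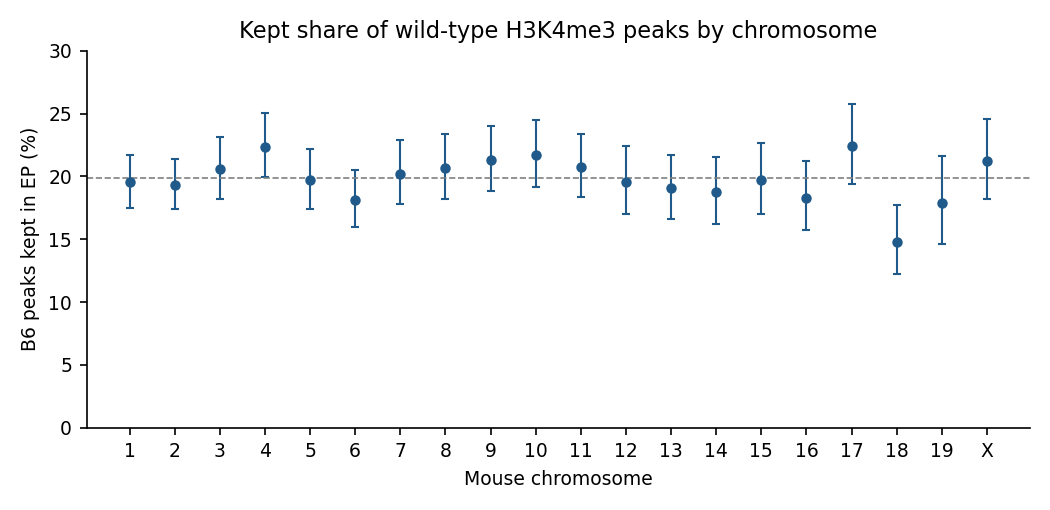
Share of wild-type (B6) H3K4me3 peaks that were kept in EP, in percent, for each chromosome except Y. Points are shares, bars are 95% Wilson intervals over peaks, and the dashed line is the 19.9% of all peaks; chromosome 18 lies lowest at 14.8%.

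Apart from chromosome 4, the larger autosomes lay close to the common share. Chromosome 1 kept 268 of 1372 peaks (19.5%), chromosome 2 kept 294 of 1524 (19.3%), chromosome 3 kept 208 of 1011 (20.6%) and chromosome 5 kept 209 of 1060 (19.7%). Chromosome 6 kept 206 of 1135 (18.1%), chromosome 7 kept 195 of 964 (20.2%), chromosome 8 kept 195 of 942 (20.7%) and chromosome 9 kept 207 of 971 (21.3%). The smaller autosomes spread a little more around the same value. Chromosome 10 kept 199 of 917 (21.7%), chromosome 11 kept 211 of 1016 (20.8%), chromosome 12 kept 161 of 824 (19.5%) and chromosome 13 kept 175 of 918 (19.1%). Chromosome 14 kept 155 of 827 (18.7%), chromosome 15 kept 151 of 766 (19.7%), chromosome 16 kept 139 of 759 (18.3%), chromosome 17 kept 147 of 655 and chromosome 19 kept 83 of 465 (17.8%). Outside Y, the X chromosome had the fewest wild-type peaks for its length, 3.64 per Mb against 6.32 to 8.37 on the autosomes, but kept 132 of 622 (21.2%, 18.2 to 24.6%). On X this amounted to 0.773 kept peaks per Mb, and on chromosome 18 to 1.05, the lowest value of any autosome.

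A logistic fit over all wild-type peaks with chromosome as a factor did not pass the threshold of 0.05 (likelihood ratio chi-square 29.4 on 20 degrees of freedom, p = 0.0801). No chromosome (0%) of 21 differed from the mean of the chromosomes after Benjamini-Hochberg adjustment, and 2 had an unadjusted p below 0.05. These were chromosome 18, whose log odds minus the mean were -0.32 (SE 0.12, n = 18427 peaks, adjusted p = 0.134), and chromosome 4 (0.18, SE 0.089, adjusted p = 0.410). The call for chromosome 18 depended on the mean it was set against and on which peaks were fitted. Without chromosome Y, whose 8 peaks enter that mean with the weight of a whole chromosome, the difference was -0.35 (SE 0.11, n = 18419 peaks, adjusted p = 0.0221), and 1 of 20 chromosomes passed. The factor as a whole still did not (likelihood ratio chi-square test, p = 0.0644). With the width of the wild-type peak in the fit, the difference of chromosome 18 was -0.22 (n = 18427 peaks, adjusted p = 0.446). In the logistic fit without width, over peaks of median width or more and with chromosome Y in, it was -0.59 (n = 9232 peaks, adjusted p = 0.0288). Over narrower peaks it was -0.20 (n = 9191 peaks, adjusted p = 0.453). Chromosome Y had no kept peak among these and was left out, so the means of the 2 parts differ in this. Peaks of 1 list are the unit of these fits, so they compare places in the lists and not mice.

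Chromosome 18 was the lowest of the 20 chromosomes other than Y both in the narrowest and in the widest of 5 equally filled width classes, where it kept 28.03% and 23.3%. The same classes reached 46.4% on chromosome 4 and 45.1% on X. In the 3 classes between them other chromosomes were lowest, 19 with 8.57%, X with 2.59% and 14 with 1.89%. Outside Y, median widths of wild-type peaks lay between 1071 and 1187 bp, and median widths of EP peaks between 642 and 750.5 bp. Also outside Y, the median ratio of EP to wild-type width in kept peaks ran from 0.523 on chromosome 12 to 0.761 on chromosome 19. The share of peaks counted as within 1 kb of a start, 0 of 8 on Y, ran on the others from 1.21% on chromosome 12 to 3.79% on chromosome 15. For genes without a RefSeq start, it counts peaks near either boundary of the gene. That held for some genes of other chromosomes and for all protein-coding genes of chromosome 18, which had 3.11%. These shares are therefore not of starts alone, and that of chromosome 18 cannot be set beside the others.

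The kept share was higher near the starts of protein-coding genes. Of the 371 wild-type peaks within 1 kb of the start of a protein-coding gene, 155 were kept (41.8%, 36.9 to 46.9%). For genes without a RefSeq start, this class counts peaks near either boundary of the gene, so it is not of starts alone. Of the 11145 other peaks that overlapped the span of an annotated gene, 2320 were kept (20.8%, 20.1 to 21.6%). Of the 6911 peaks outside genes, 1186 were kept (17.2%, 16.3 to 18.1%). Peaks near starts were a small class, 2.01% of the wild-type list, 4.23% of the kept peaks and 1.46% of the lost peaks.

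Against peaks outside genes, the odds of being kept were 3.46 times as high near starts (95% interval 2.79 to 4.30, logistic fit, n = 18427 peaks, adjusted p = 2.78e-29). They were 1.27 times as high inside genes (1.17 to 1.37, n = 18427 peaks, adjusted p = 1.67e-09). With width decile and chromosome in the same fit (n = 18427 peaks) the odds ratios were 3.59 (2.80 to 4.61, adjusted p = 1.31e-23) and 1.23 (1.12 to 1.34, adjusted p = 3.82e-06). In the wider part of the list, split at the median width, the odds ratio near starts was 1.79 (logistic fit, n = 9232 peaks, adjusted p = 0.00246), and that inside genes was 1.09 and did not pass (adjusted p = 0.131). In the narrower part they were 5.64 and 1.46 (logistic fit, n = 9195 peaks, adjusted p = 2.54e-31 and adjusted p = 4.58e-12). The start of a gene was taken from RefSeq for 17492 of 21887 protein-coding genes, and both gene boundaries stood in for the other 4395, all 511 of chromosome 18 among them. With RefSeq starts only and without chromosome 18, 207 peaks lay within 1 kb of a start, 101 of them were kept (48.8%, 42.1 to 55.6%), and the odds ratio against peaks outside genes was 4.55 (logistic fit, n = 17784 peaks, adjusted p = 4.87e-26).

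The excess of kept peaks reached a few kb from the start and then levelled off. The following values are for the 17784 peaks of chromosomes with RefSeq starts, 20.1% of which were kept. Genes without a RefSeq start are not counted here, so a peak classed as far may lie near the start of one. Peaks containing a start were kept in 27 of 58 cases (46.6%, 34.3 to 59.2%). At up to 1 kb from the start 74 of 149 were kept (49.7%, 41.7 to 57.6%), and at 1 to 2 kb 222 of 414 (53.6%, 48.8 to 58.4%). At 2 to 3 kb the share was 41.1% of 338, and at 3 to 5 kb it was 27.1% of 535 (23.5 to 31.0%). At 5 to 10 kb it was 21.4% of 1193 and at 10 to 20 kb 19.0% of 1966, where it met the background. From there it stayed near 20% up to 100 kb and was lowest in the most remote peaks. It was 16.2% of 4850 peaks at 100 to 500 kb (15.2 to 17.2%) and 15.3% of 2092 peaks farther than 500 kb (13.8 to 16.9%). In all, 1494 peaks lay within 5 kb of a start and 607 were kept (40.6%, 38.2 to 43.1%), against 2959 of 16290 farther away (18.2%, 17.6 to 18.8%). The peaks within 5 kb thus made up 8.40% of wild-type peaks and 17.0% of kept peaks.

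**Figure D2:**
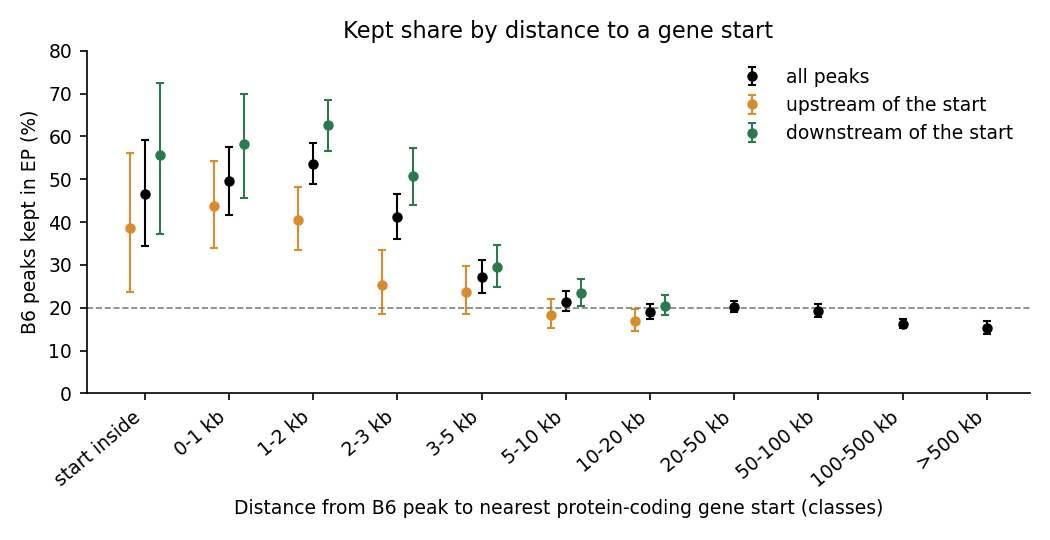
Share of wild-type peaks kept in EP, in percent, by distance class from the peak to the nearest RefSeq start of a protein-coding gene. Black points are all peaks, coloured points peaks with their midpoint upstream or downstream of that start (up to 20 kb), bars are 95% Wilson intervals and the dashed line is 19.9%; the share is highest, 53.6%, at 1 to 2 kb.

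At 1 to 3 kb from a start, peaks on the transcribed side were kept more often than those before it. At 1 to 2 kb, 153 of 244 downstream peaks were kept (62.7%, 56.5 to 68.5%) and 69 of 170 upstream peaks (40.6%, 33.5 to 48.1%). At 2 to 3 kb the shares were 50.7% of 211 downstream (44.0 to 57.4%) and 25.2% of 127 upstream (18.5 to 33.4%). The intervals of the 2 sides did not overlap in either class. They did at up to 1 kb, with 35 of 60 downstream (58.3%, 45.7 to 69.9%) and 39 of 89 upstream (43.8%, 33.98 to 54.2%), and at 3 to 5 kb, with 29.5% of 319 downstream and 23.6% of 216 upstream. Peaks that contain the start are put on a side by their midpoint in the shares that follow. Downstream peaks within 2 kb were also narrower, with a median of 745 bp against 979 bp upstream. Among the narrowest of the 5 width classes alone, 141 of 174 downstream peaks within 2 kb were kept (81.0%, 74.6 to 86.2%) and 66 of 102 upstream peaks (64.7%, 55.1 to 73.3%). In the widest class the order within 5 kb was the other way, with overlapping intervals. There, 53 of 125 downstream peaks were kept (42.4%, 34.1 to 51.2%) and 46 of 99 upstream peaks (46.5%, 36.96 to 56.2%).

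The other end of the gene showed no such excess. Only ends of protein-coding genes with a RefSeq start were counted. Among peaks farther than 5 kb from any RefSeq start, 54 of 280 within 1 kb of such an end were kept (19.3%, 15.1 to 24.3%). The share was 23.0% of 191 at 1 to 2 kb from an end, 17.5% of 543 at 2 to 5 kb and 18.1% of 15276 farther away. Intervals of the 3 classes near an end all contained the share of the remote class. Also farther than 5 kb from any RefSeq start, 19.1% of 9921 peaks inside genes were kept (18.3 to 19.9%) and 16.7% of 6369 outside genes (15.8 to 17.7%).

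Every chromosome with RefSeq starts and peaks near them showed the excess near starts. The kept share within 5 kb of a start was above that of the remaining peaks on 19 of 19 chromosomes (all but 18 and Y). The difference was smallest on chromosome 9 (12.2 percentage points, 31 of 96 near against 176 of 875) and largest on chromosome 15 (30.4 percentage points, 18 of 37 near against 133 of 729). Across these chromosomes the share near starts ranged from 32.3 to 48.6% and the share elsewhere from 15.5 to 21.04%, so the 2 ranges did not overlap. On X it was 26 of 58 near starts (44.8%) and 106 of 564 elsewhere (18.8%).

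The kept share near starts was higher where the start was richer in CpG. For peaks within 5 kb, CpG dinucleotides were counted in the 300 bases around the nearest start. With 0 to 2 CpGs, 52 of 205 peaks were kept (25.4%, 19.9 to 31.7%), and with 3 to 5, 73 of 213 (34.3%, 28.2 to 40.9%). With 6 to 10 the share was 41.8% of 220, with 11 to 20 it was 44.7% of 333, and with 21 to 60 it was 46.0% of 522 (41.7 to 50.3%). Intervals of the lowest and the highest class did not overlap. That of the lowest contained the 20.1% of all peaks, near or far from a start, on chromosomes with RefSeq starts. It lay above the 18.2% (17.6 to 18.8%) of the peaks farther than 5 kb from a RefSeq start. On the downstream side the share was 35.0% of 203 with up to 5 CpGs and 50.6% of 658 with 6 or more. On the upstream side it was 25.1% of 215 and 35.6% of 418. Median widths of the peaks fell along the same classes, from 1080 to 904.5 bp, and their part in the result was not tested.

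Kept shares near and far from starts also differed within classes of wild-type width. The 5 width classes were 116 to 769, 770 to 1002, 1003 to 1273, 1274 to 1638 and 1639 to 5524 bp. In the narrowest class, 344 of 508 peaks within 5 kb of a start were kept (67.7%, 63.5 to 71.6%), against 990 of 3061 farther away (32.3%, 30.7 to 34.0%). In the middle class, 42 of 250 were kept near starts (16.8%, 12.7 to 21.9%) and 5.66% of 3287 farther away (4.92 to 6.502%). In the widest class, 99 of 224 were kept near starts (44.2%, 37.8 to 50.7%) and 35.8% of 3358 farther away (34.2 to 37.5%). The excess near starts was therefore present in all 3 of these classes and smallest, in percentage points, among the widest peaks. Farther than 500 kb from any RefSeq start, 24.9% of the 354 narrowest and 36.3% of the 465 widest peaks were kept. The 3 classes between them kept 9.27, 3.29 and 2.52%.

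**Figure D3:**
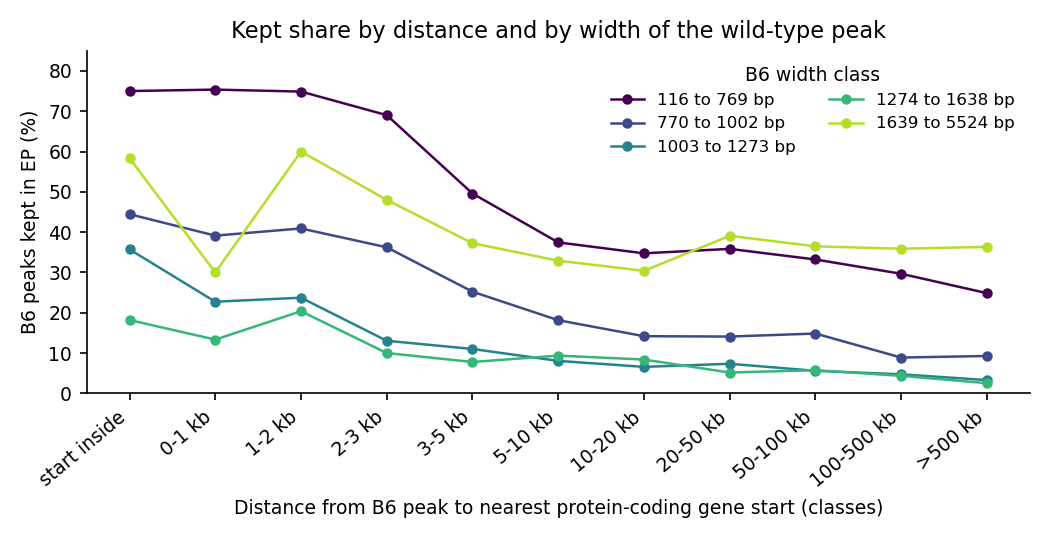
Share of wild-type peaks kept in EP, in percent, by distance class to the nearest RefSeq start, with 1 line per class of wild-type peak width. The line of the narrowest class falls from 75% for peaks containing a start to 24.9% beyond 500 kb, and the third and the fourth class lie lowest throughout.

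Along the autosomes the kept share was lowest next to the centromere, which in mouse lies at the start of each chromosome. Each autosome was divided into 10 segments of equal length. In the first, 171 of 1090 peaks were kept (15.7%, 13.6 to 17.97%). In the other segments combined it was 3357 of 16707 (20.1%, 19.5 to 20.7%). The single segments after the first ranged from 18.4% (segment 6) to 22.1% (segment 8), and the last held 20.9% of 1779. The segments differed in a logistic fit over 17797 peaks (likelihood ratio chi-square 26.5 on 9 degrees of freedom, p = 0.00172), also with width decile (p = 0.00367) or context (p = 0.00239) in the fit. Without the first segment the other 9 did not pass the same chi-square test (p = 0.103), nor did all 10 among peaks narrower than the median (p = 0.334). The first segment was below the rest of its chromosome on 14 of 19 autosomes. Chromosome 14 had 1 kept peak of 38 there (2.63%, 0.466 to 13.5%), and chromosome 7 went the other way with 9 of 28 (32.1%, 17.9 to 50.7%). Peaks of the first segment overlapped genes as often as the rest, 63.03% against 62.3%, and had a median width of 1076.5 bp. The first 10 Mb kept 16.04% of 798 peaks and the last 10 Mb 21.2% of 1378.

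**Figure D4:**
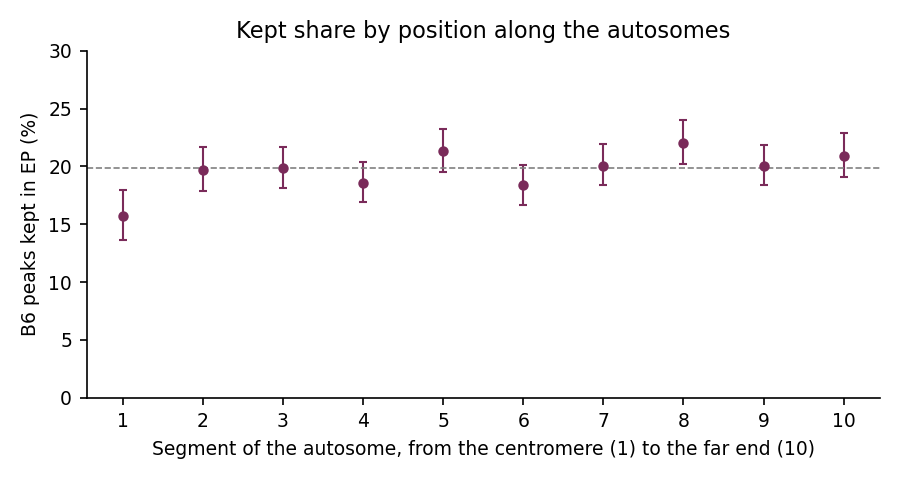
Share of wild-type peaks kept in EP, in percent, by segment of the autosome's length (10 equal segments, counted from the centromere), over 19 autosomes. Points are shares, bars 95% Wilson intervals and the dashed line the 19.9% of all peaks; the first segment is lowest at 15.7%.

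Peaks that closely followed a kept peak were kept more often than those that closely followed a lost one. When the preceding wild-type peak on the chromosome was at most 5 kb away and kept, 89 of 230 peaks were kept (38.7%, 32.6 to 45.1%), and when it was lost, 150 of 805 (18.6%, 16.1 to 21.5%). In the whole list 9 EP intervals each overlapped 2 wild-type peaks, which the overlap rule then keeps together. At 5 to 20 kb the shares were 26.2% of 461 (22.4 to 30.4%) and 19.9% of 1719 (18.1 to 21.8%). At 20 to 50 kb they were 21.99% of 714 and 19.9% of 2717, with overlapping intervals. At 50 to 100 kb the intervals were apart again, with 23.96% of 768 (21.1 to 27.1%) and 19.4% of 3009 (18.03 to 20.9%). Beyond 100 kb they were 19.7% of 1480 and 18.5% of 6503, with overlapping intervals. Of the 230 peaks that followed a kept one within 5 kb, 2.61% lay within 1 kb of a start, against 0.745% of the 805.

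Where a peak was kept, the EP interval was usually a shortened version of the wild-type one. Over the 3661 kept peaks the median EP width was 0.580 times the wild-type width (quartiles 0.425 to 0.926), and 83.8% of EP intervals lay wholly inside the wild-type interval. The EP intervals covered 55.7% of the bases of kept wild-type peaks and 12.1% of the bases of the whole wild-type list. Only 386 (10.5%) were wider than the wild-type interval. Borders coincided to the base at both ends in 316 cases (8.63%) and at 1 end in 1548 (42.3%), so a ratio near 1 is partly a matter of shared borders. In the narrowest width class the median ratio was 0.917 (95% interval of the median 0.891 to 0.944). It was 0.847, 0.641 and 0.525 in the next 3 classes, and 0.461 (0.453 to 0.468) in the widest, where no interval (0 of 1326) kept both borders or was wider.

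**Figure D5:**
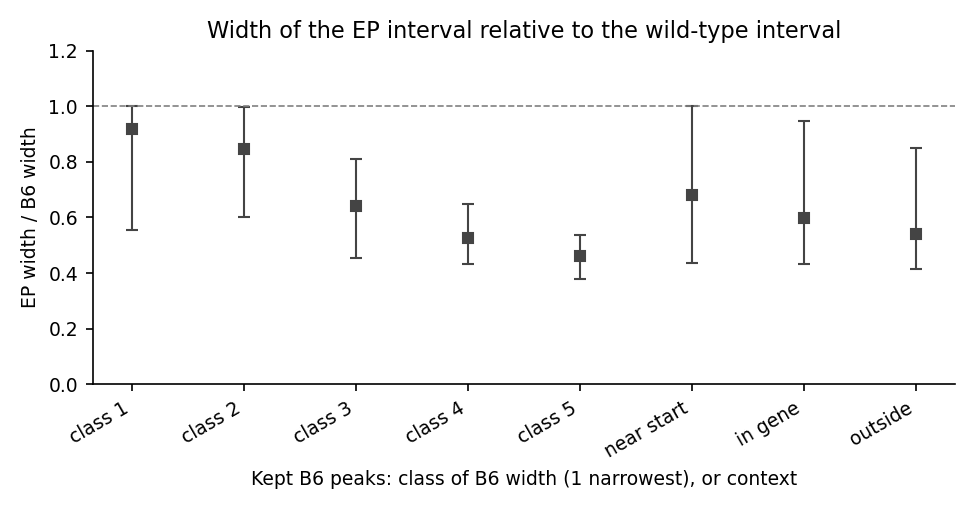
Width of the EP interval divided by the width of the kept wild-type interval, by class of wild-type width (1 is narrowest) and by genomic context. Squares are medians, bars the quartiles and the dashed line a ratio of 1; the median falls from 0.917 in the narrowest to 0.461 in the widest class.

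Near gene starts the EP intervals were closer to wild-type width. The median ratio was 0.725 (0.670 to 0.791) over the 607 kept peaks within 5 kb of a RefSeq start and 0.559 (0.548 to 0.575) over the 2959 farther away. The kept peaks near starts were also narrower in wild type, 722 bp against 1117 bp in median. Both borders coincided in 18.5% of them and in 6.69% of the others. Where the borders did not both coincide and the start lay outside the peak, the midpoint of the EP interval was closer to the start than the wild-type midpoint in 186 of 296 downstream peaks (62.8%, 57.2 to 68.1%) and in 104 of 177 upstream peaks (58.8%, 51.4 to 65.7%). The shift was small, with a median of 36.75 bp toward the start downstream and 21 bp upstream.

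Each of the 5 widest kept peaks lay inside a gene and more than 10 kb from a RefSeq start. The widest was chr4:139204946-139210032 (5087 bp) within Capzb, a subunit of the actin capping protein, and its EP interval was 2413 bp wide. The next, chr1:84803439-84808423 (4985 bp) within the ubiquitin ligase gene Trip12, had the widest EP interval of the 5, 3120 bp. It was followed by chr2:181808678-181813595 (4918 bp, 1770 bp in EP) within Myt1, a zinc finger transcription factor gene. The fourth was chr11:105864481-105869196 (4716 bp, 1618 bp in EP) within the scaffold protein gene Tanc2. The fifth was chr9:83858163-83862739 (4577 bp, 1902 bp in EP) within Ttk, the gene of a spindle checkpoint kinase. On the 20 chromosomes other than Y, the widest kept peak ranged from 3072 bp (chromosome 5) to 5087 bp (chromosome 4).

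The 2 widest peaks of the wild-type list were lost. They lay side by side within Enpp6, a choline-specific phosphodiesterase gene, at chr8:47004292-47009815 (5524 bp) and chr8:46997870-47003250 (5381 bp). The next lost peaks were chr14:33439884-33444132 (4249 bp) within Mapk8, the gene of the stress kinase JNK1, and chr8:106966982-106971218 (4237 bp) within Sntb2, a syntrophin gene. The fifth was chr19:24380746-24384398 (3653 bp) within Pip5k1b, a lipid kinase gene. The peak in Mapk8 lay 3026 bp from a start of that gene, in the class of 3 to 5 kb, of which 27.1% were kept. Coordinates are mm10, counted from 1. Exons were not analysed here.

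Counted by gene, 5353 of 21887 protein-coding genes held a wild-type peak in their span, and 1823 of these (34.1%) held a kept one. This is a share of genes, some with several peaks, and is not read against the background share of peaks. Of the 3206 genes with 1 wild-type peak, 794 kept it. Bbs9, which encodes a subunit of the BBSome of the primary cilium, held the most kept peaks, 9 of 12. These kept peaks of Bbs9 included close neighbours, such as chr9:22488386-22488709 and chr9:22488724-22489241, with wild-type widths of 324 and 518 bp and EP widths of 324 and 498 bp. Only its kept peak at chr9:22826653-22829431 was in the widest class, with 2779 bp in wild type and 1595 bp in EP. Hdac9, a histone deacetylase gene, kept 6 of 12. Thsd4, an extracellular matrix gene, and Nfib, a transcription factor gene, each kept 5 of 5. In Nfib the EP widths were 269, 336, 801, 502 and 506 bp beside wild-type widths of 1220, 971, 783, 635 and 506 bp. Dock3, the gene of a neuronal exchange factor, kept 4 of 6, and Bcas3 and the synapsin gene Syn3 4 of 9 each. Ctnna3, an alpha-catenin gene with 17 wild-type peaks, kept 4, close to the background.

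Of the 357 protein-coding genes with 5 or more wild-type peaks, 104 kept none. With most peaks lost in the whole list, such genes are not set apart by this count. Among those with the most peaks was Ptprd, a receptor phosphatase gene, with 12. Cdh13, a cadherin gene, Kcnma1, a potassium channel gene, and Erc2, a gene of the presynaptic active zone, had 11 each. Enpp6, the acid-sensing ion channel gene Asic2 and Csmd1 had 10 each. The 3 middle width classes, where kept shares were lowest in the whole list, held from 7 of 11 peaks in Kcnma1 to 11 of 11 in Erc2. Choosing genes with no kept peak favours these classes, so the counts cannot be compared with the whole list. The named genes of both kinds are long, from 158 to 2271 kb for those with none kept and from 217 to 1574 kb for those with the most kept.

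Genes of meiotic recombination themselves did not stand out. Of 56 matched genes on a list of factors for break formation, strand exchange, synapsis and crossing over, 15 held a wild-type peak, 20 peaks in all, and 3 of these were kept, a count close to the 19.9% of all peaks. None of the 56 had a wild-type peak within 1 kb of its start. The kept peaks were in Iho1 and Hormad1, whose products act on the chromosome axis in break formation, and in Hsf2bp, whose product binds BRCA2 (1 of 2 peaks). Tex11, an X-linked gene needed for synapsis and crossing over, held 4 peaks and none was kept. Single lost peaks lay in Ankrd31, Sycp2, Msh4, Mlh3, Rnf212b, Cntd1, Shoc1, Stag3, Bhmg1 (Meiosin) and Trip13, and 2 in 4930432K21Rik (Brme1).

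The EP list had 31 peaks with no wild-type peak under them, on 15 chromosomes. They were narrow, with a median of 403 bp (110 to 994 bp). Of the 30 on chromosomes with RefSeq starts, 8 (26.7%, 14.2 to 44.4%) lay within 5 kb of a start, compared with 16.7% of 3576 EP peaks at wild-type peaks and 8.40% of wild-type peaks. The widest, chr8:100328279-100329272, lay outside annotated genes, and so did chr5:97369332-97370005 (674 bp). The others of the 5 widest were chr14:18466290-18466992 (703 bp) in the lncRNA gene Gm32587, chrX:102910085-102910768 (684 bp) in Dmrtc1a, 1398 bp from a start of it, and chr16:32654268-32654891 (624 bp) in the kinase gene Tnk2.

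The H3K36me3 mark, which PRDM9 also places, went with different kept shares in different contexts, a difference between contexts that was not tested. Double-marked peaks, those also in the list of peaks with both marks, were 33.4% of wild-type peaks near starts, 35.2% inside genes and 41.2% outside. Here the class near starts is that within 1 kb, with gene boundaries in place of missing RefSeq starts. Near starts, 35 of 124 double-marked peaks were kept (28.2%, 21.1 to 36.7%) and 120 of 247 others (48.6%, 42.4 to 54.8%). Outside genes the order was the opposite, with 20.8% of 2848 double-marked and 14.6% of 4063 others kept. Inside genes the shares were 20.2% of 3920 and 21.2% of 7225, with overlapping intervals. Double-marked peaks were wider in each context, near starts with medians of 1465 and 866 bp, and the part of width in this was not tested.

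A single H3K4me3 list per genotype gives no error between replicates, and the read depth behind a peak is unknown, so a lost peak is one that was not detected in EP. Fewer marked cells and less mark per cell cannot be told apart in such data. All intervals cover the counting of peaks only.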

How the data were processed

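The lists were used as the authors deposited them. The submitters' processing notes name Trimmomatic, BWA 0.7.9a, MACS 1.4 and mm10, with no roles. Per the deposited description, both H3K4me3 lists are limited to sites already known to depend on PRDM9 and come from an earlier series. The detection threshold and the input control are not given in the sources used here. Values are interval borders, with no score or count.

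Overlaps were computed in Python 3.11.15 with pandas 2.3.3. Shares have 95% Wilson intervals (SciPy 1.17.1). Logistic regressions over all wild-type peaks used statsmodels 0.14.6, with likelihood ratio tests, and Wald p-values under Benjamini-Hochberg adjustment over chromosomes or the 2 contrasts of context. They were tested on simulated data in which each peak was drawn independently. The fits and the Wilson intervals also treat peaks as independent. Close neighbours shared their outcome more often than that, so p-values may be too small and intervals too narrow. The size of this effect was not tested. Chromosome length was the farthest coordinate in the lists and in the RefSeq table (GRCm38.p6). Distance to a start is the gap between interval and start. EP width is that of the widest overlapping EP interval, and the interval of a median width ratio is from binomial order statistics.

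Named sites were the 5 widest kept, lost and EP-only peaks. Named genes were the 8 with most kept peaks, the 8 with most peaks and none kept (1 of which is not reported here), and listed meiotic genes with a peak near their start; other meiotic genes and peaks of Bbs9 and Nfib were named after their values were seen. Members, lists and tests were chosen with earlier results of these data known. Distance classes, sides, CpG classes, gene ends and neighbours were chosen after the lists were seen and carry no test. EK lists were not used here.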

Additional observations from a re-analysis of the deposited data

How the results depend on the processing

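Requiring 50% overlap of the shorter interval, comparing midpoints within 500 bp, and merging neighbours within 500 bp left every result on the same side of its threshold. Restriction to wild-type peaks of median width or more moved the kept share to 17.9%, the odds ratio inside genes to 1.09 (not past the threshold), the median width ratio to 0.472 and the number of chromosomes past the threshold to 1, which was chromosome 18. Restriction to narrower peaks moved the kept share to 21.8%, the width ratio to 0.881 and the p of the position test to 0.334; chromosome Y had no kept peak there and was left out of the chromosome fit. Leaving out chromosome Y, an alternative chosen after the data were seen, also gave 1 chromosome past the threshold. The odds ratio near starts was past the threshold under all 12 alternatives and ranged from 1.79 (wide peaks) to 5.64 (narrow peaks). The p of the chromosome factor stayed above the threshold under all 9 (0.0535 to 0.0984). Neither odds ratio of context nor the difference of chromosome 18 changed direction under these alternatives; the position and chromosome tests give a p only. Leaving out replicates was not run, since each list covers both libraries. No paired analysis was possible because the lists carry no replicate numbers. Depth limits what a lost peak can show.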
